A study of Mus musculus with 24 samples.

Results

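The comparison covers 2 of the 6 groups of libraries in the series: 4 made 24 h after anti-CD3 from mice that received an empty vehicle, and 4 from naive mice that received the same vehicle and no antibody. These 8 of 24 libraries were chosen by their labels alone. All mice were C57BL/6 males, 11 weeks old, with no transgene or deletion named. The remaining groups are vehicle at 3 h, and the herbicide propyzamide without stimulation, at 3 h and at 24 h, each with 4 libraries. The groups compared also differ in the i5 index, a sequencing barcode: both unstimulated groups and vehicle at 3 h carry 1 index, and propyzamide at 3 h and both 24 h groups the other. The series title speaks of T cells and inflammatory bowel disease. Tissue, cell sort, pooling of animals, antibody clone and dose are not stated in the labels. Nothing says that replicates came from separate animals, so p-values measure only the spread between these libraries, which may be technical.

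Antibody to CD3 cross-links the T cell receptor complex, so that T cells signal, divide, release cytokines and load cytotoxic granules without meeting an antigen. Interferons released in such a response act on many cell types, switching on antiviral effectors, guanylate-binding and immunity-related GTPases, and the proteins that load peptides onto MHC class I. In the intestine, T cells in the lamina propria lie next to an epithelium of absorptive enterocytes, mucus-forming goblet cells and antimicrobial Paneth cells, and next to plasma cells that secrete IgA.

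The libraries held transcripts of several of these cell types, and T cell transcripts were few. In protein-coding CPM, that is, CPM scaled to the named protein-coding counts of each library and summed over a list, the 24 genes of the T cell receptor complex and its proximal signalling took 1110 to 1771 in 24 h libraries, against 783 to 1245 in unstimulated ones. Cd3d, a chain of the complex, had 28 counts over the 24 h libraries and 45 over the unstimulated ones, and Cd4, the co-receptor of helper T cells, had 9 and 26. These counts are not scaled to depth and give no direction. Named protein-coding counts averaged 61550 per library at 24 h and 119900 unstimulated. The 37 Paneth cell genes took 19140 to 33700 at 24 h against 46180 to 76170 unstimulated, the 19 plasma cell and IgA genes 4016 to 4835 against 10440 to 17040, and the 19 B cell identity genes 4472 to 9351 against 2734 to 7030. The T cells of the title therefore stood beside epithelial and B lineage transcripts in every library of both groups.

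Depth was low. Total estimated counts were 701287 to 2071732 in 24 h libraries and 1472544 to 2023171 in unstimulated libraries, and named protein-coding genes held 35558 to 100857 and 75722 to 160590 of them. Most other counts lay in 12 satellite-like gene models, which took 83.5% ± 2.47 at 24 h and 75.2% ± 2.74 unstimulated (SD, n = 4 each), a gap with an exact two-sided permutation p of 0.0286, the smallest that 4 against 4 libraries can give, and 0.0714 adjusted over 5 composition measures. The share of mitochondrial counts was 1.51% ± 0.431 against 3.19% ± 0.855 (exact permutation p = 0.0286, adjusted 0.0714). On the TMM-normalized scale of the gene levels below, 1 count was 0.683, 1.49, 1.14 and 1.72 CPM in the 24 h libraries. In the unstimulated libraries 1 count was 0.826, 0.438, 0.512 and 0.568 CPM. Levels of about 3 counts or fewer, such as 5.16 CPM in 24 h replicate 4, therefore rest on single reads. Of the libraries outside the comparison that share its fit, propyzamide 24 h replicate 3 stood apart, with 9812102 total counts and a satellite-like share of 40.2%, against 767327 to 1021475 counts and 79.4% to 82.1% in the other 3 of its group. Results that rest on it are given with and without it.

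Called genes that rose 24 h after anti-CD3 included the interferon-induced Ifi27l2a and Gbp2, and Gzmb and Lag3 of activated T cells. The inflammatory myeloid genes S100a9, Acod1 and Cxcl10 were also among the called genes that rose. Those that fell included the epithelial genes Olfm4 and Elf3 and the immunoglobulin joining chain Jchain. Of 3799 genes tested with edgeR's quasi-likelihood test, 12 were called higher and 4 lower after Benjamini-Hochberg adjustment over all of them at a threshold of 0.05, or 0.421% of the genes, and 272, or 7.16%, had an unadjusted p under 0.05. Leaving out any 1 of the 8 libraries left 1 to 8 genes called higher and 0 to 2 lower, RLE size factors in place of TMM gave 5 and 0, DESeq2 24 and 10, and the same fit without propyzamide 24 h replicate 3 gave 15 and 15. A fit of the 2 groups alone called 17 higher and 34 lower of 2790 genes, and in it 6 of the 12 higher genes, Gzmb, Gbp2, Lag3, Cxcl10, S100a9 and Acod1, did not pass the filter on low counts, which the other groups had carried them through. Levels of single genes are TMM-normalized CPM, and log2 fold changes are 24 h over unstimulated unless said otherwise. Those of single genes carry an approximate standard error, the size of the fold change divided by the square root of the test's F statistic. All genes tested had a median log2 fold change of -0.031, named protein-coding genes 0.11 and the remaining models -0.24. In bulk RNA, a change in the number of cells of a type and a change in RNA per cell cannot be told apart. Nor can time after anti-CD3 and i5 index be told apart between these groups for a single gene; a model that uses the other libraries for this is given at the end.

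**Figure D1:**
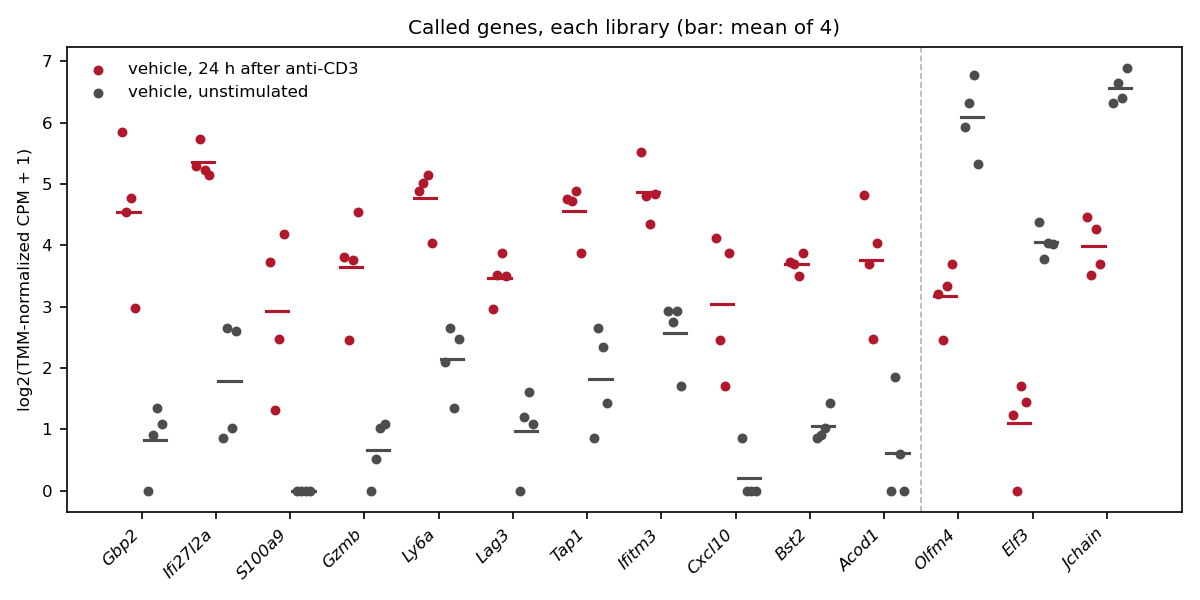
Level of 14 called genes in each of the 4 libraries 24 h after anti-CD3 (red) and the 4 unstimulated libraries (grey), as log2 of TMM-normalized CPM plus 1, with the mean as a bar. For each gene left of the dashed line all 24 h libraries lie above all unstimulated ones, and for the 3 genes right of it all lie below.

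**Figure D2:**
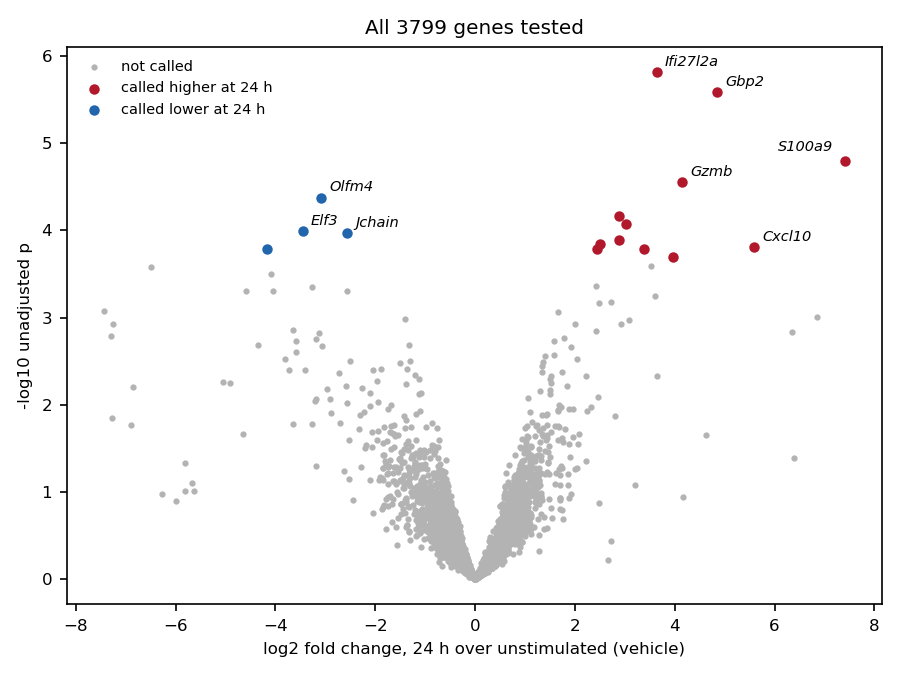
Log2 fold change of 24 h over unstimulated vehicle libraries (horizontal) and -log10 of the unadjusted p (vertical) for all 3799 genes tested, with 12 genes called higher in red, 4 called lower in blue and 8 of the called genes labelled. The fitted values of S100a9 and Cxcl10, with 0 and 1 counts in unstimulated libraries, depend on the prior count.

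Interferon-induced effectors and regulators were higher at 24 h. Ifi27l2a, an interferon-inducible membrane protein (ENSMUSG00000079017.3, GRCm38 chr12:103442167-103443680, minus strand), had 38.2, 52.3, 36.6 and 34.4 CPM in 24 h libraries, against 0.826, 5.26, 1.03 and 5.11 CPM in unstimulated ones. The groups stood far apart, and the 24 h libraries were close to each other. Its log2 fold change was 3.64 ± 0.61 (edgeR adjusted p = 0.0049), and it was called in each of 8 fits that left out 1 library. Ly6a, the surface antigen Sca-1 (chr15:74994877-74998031, minus strand), had 28.7, 31.4, 34.3 and 15.5 CPM at 24 h and 3.30, 5.26, 1.54 and 4.54 CPM unstimulated. Ifitm3, which blocks virus entry in endosomes (chr7:141009586-141010770, minus strand), had 45.04, 26.9, 19.4 and 27.5 CPM at 24 h and 6.61, 5.70, 6.66 and 2.27 CPM unstimulated. Bst2, or tetherin, which holds budding virions on the cell surface (chr8:71534255-71537456, minus strand), had 12.3, 11.95, 10.3 and 13.8 CPM at 24 h and 0.826, 0.877, 1.03 and 1.70 CPM unstimulated. No library of one group reached the range of the other for these 3 genes. Their log2 fold changes were 2.89 ± 0.62, 2.495 ± 0.57 and 3.38 ± 0.78 (edgeR adjusted p = 0.0417 for each), and none of the 3 was called in more than 1 of the 8 fits without 1 library.

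Of the 36 genes on this list 19 passed the filter on low counts. All 19 had a positive log2 fold change, with a median of 1.35 against -0.031 for all genes tested. Of all genes tested 47.9% were positive, and of the named protein-coding genes tested 56.8%. In this list 5 of the 19 were called higher, where 0.316% of all genes tested were, and in 11 the groups did not overlap, where 2.95% of all genes tested did so upwards. Members with few counts unstimulated, such as Bst2, passed the filter only through groups where they were higher, and could hardly come out lower at 24 h. Counting also the 17 members that failed the filter, 35 of 36 had a higher mean CPM at 24 h. Of those 17, Trim30a, a regulator of innate signalling, had 28 counts, not scaled to depth, over 24 h libraries and 15 over unstimulated ones. Epsti1, an interferon-response gene, had 13 and 30.

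Interferon-inducible GTPases, which attack vacuoles of intracellular microbes, were higher as well. Gbp2 (ENSMUSG00000028270.12, chr3:142620602-142638008, plus strand), a guanylate-binding protein, had 56.7, 22.4, 26.3 and 6.88 CPM at 24 h, against 0, 0.877, 1.54 and 1.13 CPM unstimulated. Even the lowest 24 h library was above every unstimulated one, although the 24 h libraries spread widely. The log2 fold change was 4.85 ± 0.84 (edgeR adjusted p = 0.0049). Tgtp2, a T cell specific GTPase, had 42.3, 19.4, 21.7 and 27.5 CPM at 24 h and 0.826, 3.07, 4.61 and 0 CPM unstimulated, with 3.61 ± 0.93 (adjusted p = 0.086). Igtp and Irgm1, immunity-related GTPases, were at 3.09 ± 0.85 and 1.92 ± 0.57 (adjusted p = 0.127 and 0.174). For these 3 the groups did not overlap but the adjusted p missed 0.05, and Tgtp2 has a near-identical neighbour that may share its reads. Of 18 listed GTPases 9 were tested and 1 was called, Gbp2, which passed the filter on low counts only through other groups. All 9 were positive with a median of 1.93, the groups did not overlap in 5, where 2.95% of all genes tested did so upwards and 0.316% were called higher, and all 18 had a higher mean CPM at 24 h.

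Promoters of the called genes in the interferon and MHC class I lists are shown because such genes are known to be switched on through the interferon-stimulated response element and the gamma-activated sequence. Of 7 such genes 4 have an entry among the RefSeq promoters of GRCm38.p6, each with 250 bases before and 50 after the gene's RefSeq start. These starts differ from those of the GENCODE coordinates printed with each gene. A position before the RefSeq start can thus lie within the GENCODE gene, as the match of Gbp2 does. Sequences run 5′ to 3′ on the gene's strand, at chr7:141010695-141010994 (minus) for Ifitm3, chr3:142620413-142620712 (plus) for Gbp2, chr8:71537423-71537722 (minus) for Bst2 and chr17:34187306-34187605 (plus) for Tap1. Capitals mark matches on either strand to GAAANNGAA, the core of the response element, or TTCNNNGAA, the gamma-activated sequence.
Ifitm3: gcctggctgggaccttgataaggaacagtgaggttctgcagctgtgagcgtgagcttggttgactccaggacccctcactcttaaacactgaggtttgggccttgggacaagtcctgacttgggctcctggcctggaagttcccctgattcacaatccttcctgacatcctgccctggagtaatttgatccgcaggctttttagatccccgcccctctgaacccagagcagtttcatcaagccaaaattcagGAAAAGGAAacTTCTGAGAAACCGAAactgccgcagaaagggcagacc
Gbp2: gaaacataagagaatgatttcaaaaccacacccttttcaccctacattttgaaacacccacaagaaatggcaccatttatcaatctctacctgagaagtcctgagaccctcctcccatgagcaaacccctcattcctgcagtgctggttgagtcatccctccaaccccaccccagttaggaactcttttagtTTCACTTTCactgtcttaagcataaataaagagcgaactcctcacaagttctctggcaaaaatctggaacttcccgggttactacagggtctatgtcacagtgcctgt
Bst2: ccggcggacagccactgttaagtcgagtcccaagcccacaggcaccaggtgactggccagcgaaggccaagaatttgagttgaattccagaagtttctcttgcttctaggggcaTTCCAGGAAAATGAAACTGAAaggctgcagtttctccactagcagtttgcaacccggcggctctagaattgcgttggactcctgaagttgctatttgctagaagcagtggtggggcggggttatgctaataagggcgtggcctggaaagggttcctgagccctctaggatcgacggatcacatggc
Tap1: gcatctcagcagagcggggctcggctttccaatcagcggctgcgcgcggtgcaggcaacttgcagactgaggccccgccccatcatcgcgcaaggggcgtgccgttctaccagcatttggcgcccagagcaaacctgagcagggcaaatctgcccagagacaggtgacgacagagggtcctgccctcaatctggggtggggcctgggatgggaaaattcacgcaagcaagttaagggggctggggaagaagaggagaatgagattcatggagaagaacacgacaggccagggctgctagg
With the start base as 0, Ifitm3 had GAAAAGGAA at 2 to 10, TTCTGAGAA at 13 to 21 and GAAACCGAA at 19 to 27, the last overlapping the one before it. Bst2 had TTCCAGGAA at -136 to -128, GAAAATGAA at -130 to -122 and GAAACTGAA at -124 to -116, each overlapping the next. Gbp2 had a response element core on the opposite strand at -58 to -50, where its own strand reads TTCACTTTC. Tap1 had no match in this window. GAAANNGAA occurred in 8.57% of 27025 promoters and TTCNNNGAA in 8.47%, and among 38 tested members of the 3 lists with a promoter in 34.2% and 26.3%. A match describes letters in a window and does not show binding.

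MHC class I presentation genes were higher over the list, with 1 of 21 tested members called, where 0.316% of all genes tested were called higher. Tap1 (chr17:34187553-34197225, plus strand), which pumps peptides into the endoplasmic reticulum, had 25.9, 25.4, 28.6 and 13.8 CPM at 24 h and 0.826, 5.26, 4.10 and 1.70 CPM unstimulated. All 24 h libraries were above all unstimulated ones, with a log2 fold change of 2.89 ± 0.66 (edgeR adjusted p = 0.0417). Tap1 was called in 1 of the 8 fits without 1 library. B2m, the light chain of every class I molecule, had 186, 169, 155 and 117 CPM at 24 h and 45.4, 92.9, 35.9 and 69.8 CPM unstimulated. These groups did not overlap either, but 1.36 ± 0.42 had an adjusted p of 0.219. H2-T23, a non-classical class I heavy chain, was at 1.40 ± 0.43 (adjusted p = 0.206) and H2-Q6, another, at 1.78 ± 0.52 (adjusted p = 0.157), and reads of class I heavy chains can be shared between their close paralogs. All 21 tested members of 24 were positive with a median of 1.19, and in 8 the groups did not overlap, against 2.95% of all genes tested upwards. Summed over all 24 members, class I genes took 10570 to 14480 protein-coding CPM at 24 h against 3834 to 7547 unstimulated.

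MHC class II genes, which B cells and other antigen-presenting cells express, had smaller values that did not pass. All 11 were tested, 0 were called by edgeR, DESeq2, limma-voom or limma-trend, 0 were at an unadjusted p under 0.05, and the groups overlapped in all 11. The median was 0.43. Cd74, the invariant chain, had 182, 415, 281 and 155 CPM at 24 h and 118, 266, 111 and 192 CPM unstimulated, with 0.59 ± 0.48 (edgeR adjusted p = 0.847).

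**Figure D3:**
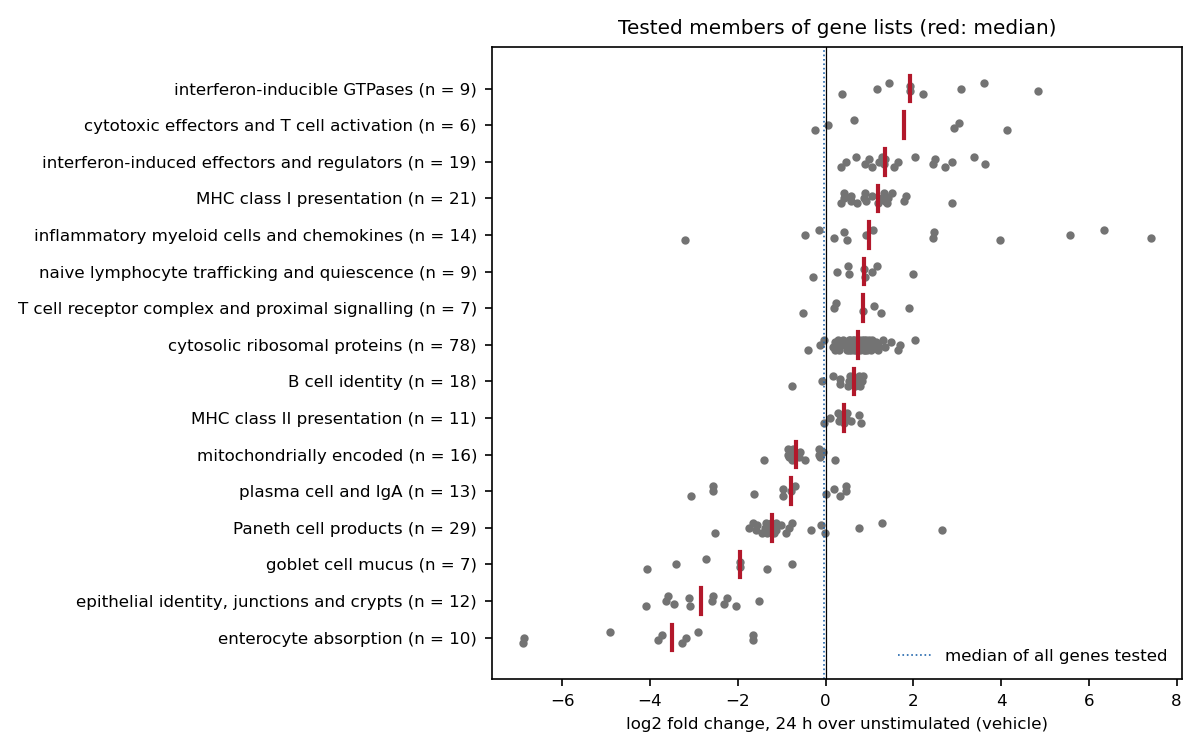
Log2 fold change of 24 h over unstimulated vehicle libraries for each tested member of 16 gene lists (grey points), with the list median (red) and the median of all 3799 genes tested (dotted). Every tested member of the interferon, GTPase and MHC class I lists lies above 0, and every tested enterocyte, epithelial and goblet member below 0.

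Gzmb and Lag3, genes of activated T cells, rose, while few other T cell genes had enough counts to be tested. Gzmb, the granule protease granzyme B (chr14:56258838-56262260, minus strand), had 13.0, 4.48, 12.6 and 22.4 CPM at 24 h and 0, 0.438, 1.03 and 1.13 CPM unstimulated. Lag3, a co-inhibitory receptor (chr6:124904361-124911705, minus strand), had 6.83, 10.4, 13.7 and 10.3 CPM at 24 h and 0, 1.32, 2.05 and 1.13 CPM unstimulated. Neither pair of groups overlapped, on 46 counts against 5 for Gzmb and 35 against 9 for Lag3. The log2 fold changes were 4.14 ± 0.84 (edgeR adjusted p = 0.0264) and 3.03 ± 0.67 (adjusted p = 0.0417). Of the 8 fits without 1 library, Gzmb was called in 2 and Lag3 in 0. Gzma, granzyme A, had 8.87, 8.96, 10.3 and 55.1 CPM at 24 h and 2.48, 4.38, 1.54 and 1.70 CPM unstimulated. Its 24 h value rests in part on 1 library far above the rest, and 2.92 ± 0.82 was not called (adjusted p = 0.128). Of 30 genes on the cytotoxic and activation list 6 were tested, 2 of them called, where 0.316% of all genes tested were called higher, and DESeq2 called 3 and limma-voom 1. Both edgeR calls, Gzmb and Lag3, passed the filter on low counts only through other groups, so nothing is concluded about the list from their count. The median was 1.78, but 0.10 over 3 members in the fit of the 2 groups alone and 0.38 over all 30 without the filter. Over all members 19 had a higher and 9 a lower mean CPM at 24 h, and Ifng, the gene of interferon gamma, and Gzmc, another granzyme, had 0 counts in both groups.

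T cell receptor genes and naive lymphocyte genes had positive medians of 0.86 and 0.88. edgeR called 0 of either, with 1 of each higher at an unadjusted p under 0.05, where 3.45% of all genes tested were. DESeq2 and limma-voom each called 0 receptor genes and 1 naive lymphocyte gene. Trbc2, a constant region of the receptor's beta chain, was at 10.1 ± 2.94 CPM at 24 h and 2.51 ± 2.12 CPM unstimulated, and its groups did not overlap (SD, n = 4 each, log2 fold change 1.89 ± 0.88, edgeR adjusted p = 0.655). Lck, the kinase that starts receptor signalling, was at 10.2 ± 2.52 CPM and 5.50 ± 1.36 CPM (0.86 ± 0.45, adjusted p = 0.717). Of 24 receptor genes 7 were tested and 19 of all 24 had a higher mean CPM at 24 h, and of 14 naive lymphocyte genes 9 were tested and 13 of all 14 were higher. B cell identity genes were near them, with 16 of 18 tested members positive, a median of 0.64 and 0 called by edgeR, DESeq2 or limma-voom. None had an unadjusted p under 0.05, and in 17 of these 18 the groups overlapped.

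Inflammatory myeloid genes held 3 calls by edgeR, where 0.316% of all genes tested were called higher, while DESeq2 called 4 and limma-voom 0. These 3, S100a9, Acod1 and Cxcl10, passed the filter on low counts only through other groups. Genes admitted in that way could hardly come out lower, so nothing is concluded about the list from this count. Of the 8 fits without 1 library S100a9 was called in 4, and Acod1 and Cxcl10 in 0. S100a9, which neutrophils and monocytes store as part of the metal-binding complex calprotectin (chr3:90692632-90695721, minus strand), had 18, 1, 4 and 10 counts in 24 h libraries and 0 in each unstimulated one. It was at least 22.1-fold higher against a floor of 3 counts over the unstimulated group (edgeR adjusted p = 0.0204). S100a8, its partner, had 10, 1, 0 and 5 counts against 0, at least 10.7-fold higher, and was not called (adjusted p = 0.145). Cxcl10, a chemokine that interferon gamma induces and that attracts activated T cells (chr5:92346638-92348889, minus strand), had 24, 3, 2 and 8 counts at 24 h and 1, 0, 0 and 0 unstimulated. The ratio was 74.2 with a 95% counting interval of 12.5 to 3011 (edgeR adjusted p = 0.0417). Acod1, which makes the antimicrobial metabolite itaconate in stimulated macrophages (chr14:103046977-103056573, plus strand), had 27.3, 11.95, 4.57 and 15.5 CPM at 24 h and 0, 2.63, 0.512 and 0 CPM unstimulated, with 3.97 ± 0.94 (adjusted p = 0.0481). Every 24 h library was above every unstimulated library for the 3 called genes, and levels within the 24 h group varied several fold. Of 28 listed genes 14 were tested, 11 of them positive and 3 negative, with a median of 0.99 and a lowest value of -3.19. The groups did not overlap upwards in 5 and downwards in 1, where 2.95% and 4.29% of all genes tested did so. At an unadjusted p under 0.05 in edgeR, 6 were higher and 1 lower. Resident macrophage genes had a median of -0.38, with 5 of 11 tested members positive, 0 called by edgeR, DESeq2 or limma-voom and 0 at an unadjusted p under 0.05.

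Epithelial identity, enterocyte, goblet and Paneth cell lists had negative medians at 24 h, and Olfm4 and Elf3 fell. Olfm4, a marker of crypt base cells (ENSMUSG00000022026.7, chr14:79984081-80023139, plus strand), had 8.19, 4.48, 9.14 and 12.04 CPM at 24 h, against 60.3, 78.9, 109 and 39.2 CPM unstimulated. Elf3, an epithelial transcription factor (chr1:135253575-135258568, minus strand), had 1.37, 0, 2.28 and 1.72 CPM at 24 h, against 19.8, 12.7, 15.4 and 15.3 CPM unstimulated. The groups were far apart for both. Log2 fold changes were -3.09 ± 0.64 (edgeR adjusted p = 0.0319) and -3.46 ± 0.77 (adjusted p = 0.0417). Of the 8 fits without 1 library, Olfm4 was called in 3 and Elf3 in 0. Lgals4, a gut epithelial galectin, had 4.78, 0, 3.43 and 0 CPM at 24 h and 32.2, 38.1, 50.2 and 57.3 CPM unstimulated, and Cldn7, a tight junction claudin, had 0.683, 1.49, 2.28 and 0 CPM and 14.9, 18.4, 14.3 and 10.8 CPM. Neither overlapped and neither was called, at -4.09 ± 1.01 (adjusted p = 0.064) and -3.64 ± 1.03 (adjusted p = 0.145).

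All 12 tested members of the 24 epithelial identity, junction and crypt genes were lower at 24 h with groups that did not overlap, where 4.29% of all genes tested did so downwards. Of these 12, 2 were called, where 0.105% of all genes tested were called lower, and the median was -2.84. Members with few counts at 24 h, such as Elf3 and Cldn7, passed the filter on low counts only through groups where they were higher. Genes admitted in that way could hardly come out higher at 24 h, so nothing is concluded about the list from these counts of tested members. All 24 members had a lower mean CPM at 24 h, and their summed level was 453 to 912 protein-coding CPM, against 4116 to 5585 unstimulated.

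Enterocyte absorption genes were at the lowest median, -3.50, or -3.05 with the 2 tested members at 0 counts in the 24 h group placed at their bound. Fabp1 and Fabp2, the fatty acid binding proteins of liver and intestinal type, had 0, 2, 5 and 0 and 1, 3, 2 and 0 counts at 24 h. Unstimulated libraries had 36, 48, 49 and 64 and 27, 54, 34 and 65 counts of them. Their log2 fold changes were -3.74 ± 1.20 and -3.81 ± 1.18 (edgeR adjusted p = 0.244 and 0.217). Apoa1, an apolipoprotein of absorbed fat, had 1 count in 24 h libraries and 74 in unstimulated ones, a ratio of 0.0271 (95% counting interval 0.000677 to 0.156), and Phgr1, an enterocyte protein, had 0 against 42, at least 6.98-fold lower. All 10 tested members of 25 were negative and did not overlap, where 4.29% of all genes tested did so downwards. With so few counts at 24 h, Fabp1, Fabp2, Apoa1 and Phgr1 passed the filter on low counts only through groups where they were higher. Genes admitted in that way could hardly come out higher at 24 h. Nothing is therefore concluded about the list from the direction and lack of overlap of tested members. In mean CPM 24 of 25 were lower at 24 h, and the last, S100g, had no count. Yet edgeR called 0, with 7 at an unadjusted p under 0.05, where 3.71% of all genes tested were in that direction. DESeq2 called 1 and limma-voom 0. Beside these lists, genes detected numbered 16240 ± 3869 at 24 h and 21510 ± 3144 unstimulated (SD, n = 4 each, exact permutation p = 0.114, adjusted 0.191), with overlap, and the satellite-like share differed as given above. The part of depth and library composition in the lists was not tested. The summed level was 330 to 426 protein-coding CPM at 24 h against 2144 to 3122 unstimulated.

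Goblet cell mucus genes had a median of -1.96, with 7 of 11 members tested and all 11 lower in mean CPM. Of these edgeR called 0, with 5 at an unadjusted p under 0.05, where 3.71% of all genes tested were in that direction. DESeq2 called 1 and limma-voom 0. Zg16, a mucus-layer lectin, had 3 counts in 24 h libraries and 108 in unstimulated ones, a ratio of 0.0557 (95% counting interval 0.0113 to 0.167). Members with so few counts at 24 h passed the filter on low counts only through groups where they were higher, and could hardly come out higher at 24 h. Tff3, a trefoil peptide, was at 1.15 ± 0.777 CPM at 24 h and 7.76 ± 3.48 CPM unstimulated, and Fcgbp, a mucin-binding protein, at 2.71 ± 3.59 and 11.1 ± 1.39 CPM (SD, n = 4 each). The groups did not overlap for these 3 genes.

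Paneth cell products were lower by less. Lyz1, the Paneth lysozyme, had 264, 164, 142 and 251 CPM at 24 h and 520, 419, 682 and 450 CPM unstimulated, and Itln1, a lectin that binds microbial glycans, had 111, 89.6, 73.1 and 87.7 CPM and 255, 189, 258 and 196 CPM. Both pairs of groups were apart, and log2 fold changes of -1.33 ± 0.40 and -1.31 ± 0.41 were not called (edgeR adjusted p = 0.170 and 0.219). The alpha-defensins Defa39 and Defa30 were at -1.36 ± 0.43 and -1.21 ± 0.39, and single members of this family of close paralogs are uncertain because they can share reads. Of 37 listed genes 29 were tested, 26 of them negative with a median of -1.21 and 0 called by edgeR. Lower at an unadjusted p under 0.05 were 12, where 3.71% of all genes tested were. DESeq2 called 0 members of the list and limma-voom 2. Over all members 31 were lower and 5 higher in mean CPM.

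Among plasma cell and immunoglobulin genes, Jchain fell. Jchain, the chain that joins secreted IgA and IgM (ENSMUSG00000067149.6, chr5:88519809-88527891, minus strand), had 21.2, 10.4, 18.3 and 12.04 CPM at 24 h, against 79.3, 99.5, 83.5 and 118 CPM unstimulated. Its groups were well apart, at -2.57 ± 0.58 (edgeR adjusted p = 0.0417), but it was called in 0 of the 8 fits without 1 library. Igha, the IgA heavy chain, had 86.0, 58.2, 62.8 and 61.9 CPM at 24 h and 419, 344, 318 and 518 CPM unstimulated, also with no overlap (-2.56 ± 0.65, adjusted p = 0.0781). Ighg1, the IgG1 heavy chain, and Iglc1, a lambda light chain, were at -3.07 ± 0.91 and -1.63 ± 0.67 (adjusted p = 0.170 and 0.545) and overlapped. Ighm, the IgM heavy chain that B cells also carry, had 58.0, 181, 155 and 58.5 CPM at 24 h and 33.0, 87.7, 61.0 and 69.2 CPM unstimulated, with overlap and 0.84 ± 0.46 (adjusted p = 0.742). Cd79b, a subunit of the B cell receptor, was at 0.79 ± 0.49 (adjusted p = 0.767). Of 13 tested members of the plasma cell list 8 were negative, with a median of -0.78 and 1 called, where 0.105% of all genes tested were called lower. Over all 19 members 9 were higher and 10 lower in mean CPM.

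**Figure D4:**
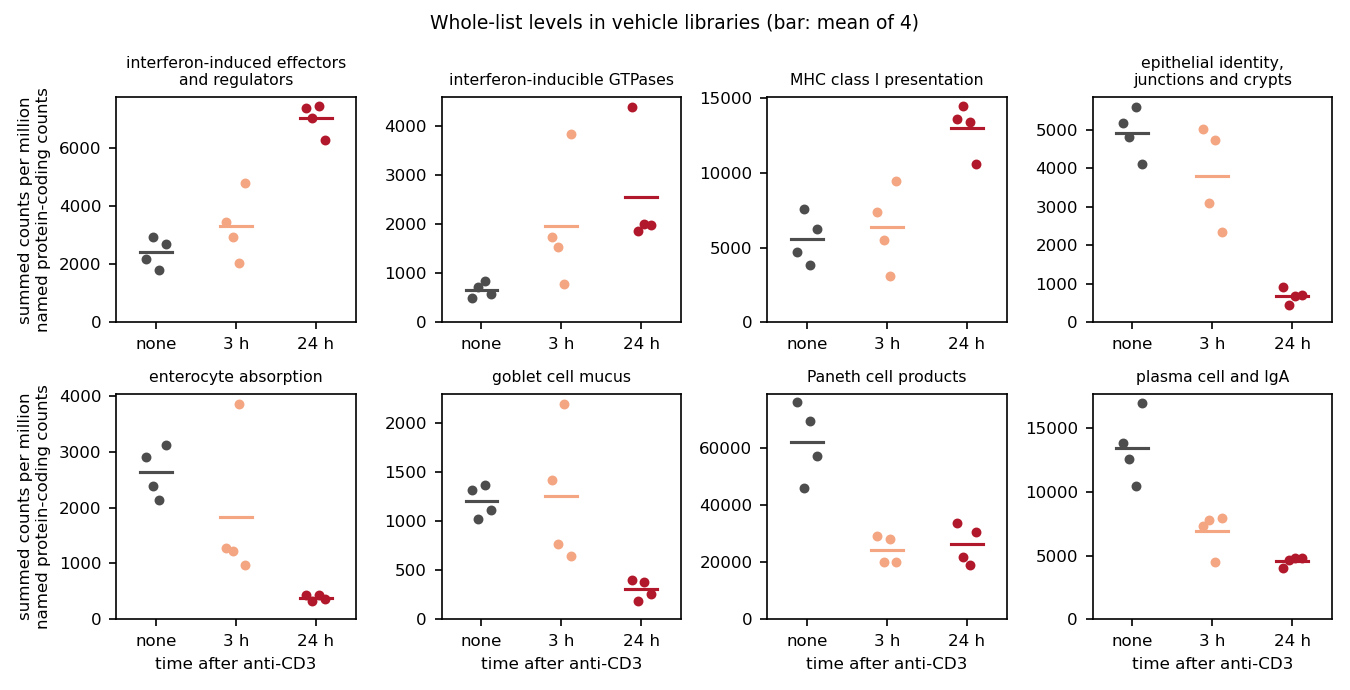
Summed level of all members of 8 gene lists, in protein-coding CPM, in vehicle libraries without stimulation, at 3 h and at 24 h after anti-CD3, with the mean of 4 libraries as a bar and vertical axes starting at 0. Interferon, GTPase and MHC class I sums at 24 h lie above all unstimulated libraries, and the 5 epithelial and plasma cell sums lie below them.

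Ribosomal and mitochondrial transcripts differed in opposite directions. Of 83 cytosolic ribosomal protein genes 78 were tested and 75 were positive with a median of 0.73, 0 being called by edgeR, DESeq2 or limma-voom and 16 at an unadjusted p under 0.05, where 3.45% of all genes tested were in that direction. Rpl35 had 10.2, 13.4, 27.4 and 6.88 CPM at 24 h and 1.65, 4.82, 2.56 and 4.54 CPM unstimulated (2.05 ± 0.63, adjusted p = 0.217). Of 37 mitochondrially encoded genes 16 were tested and 15 were negative with a median of -0.68, while over all 37 members 16 were higher and 21 lower in mean CPM, 0 being called by edgeR or DESeq2, 1 by limma-voom, and 5 at an unadjusted p under 0.05, where 3.71% of all genes were. mt-Atp6, a subunit of ATP synthase, had 2193, 1390, 1136 and 872 CPM at 24 h and 3086, 3632, 4606 and 3392 CPM unstimulated (-1.40 ± 0.38, adjusted p = 0.126). The groups did not overlap for either gene.

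Other lists had medians closer to that of all genes or few tested members. DNA replication and proliferation genes had a median of 0.38 (11 of 17 tested members positive), with Pcna, the sliding clamp of DNA polymerase, at 1.32 ± 0.61 (edgeR adjusted p = 0.654). NF-kappaB genes had 0.56 (8 of 10 positive), glycolysis genes 0.47 (8 of 10 positive), heat shock and immediate early genes 0.29 (11 of 19 positive), and cell death genes 0.23 (4 of 6 positive). Epithelial stress genes had -0.68 (0 of 3 positive), with 6 members higher and 6 lower in mean CPM. Mast cell, eosinophil and red cell genes had 0.92 with 3 of 3 tested members positive, and the dendritic and stromal lists had 1 tested member each, at 0.038 and 0.40. edgeR, DESeq2 and limma-voom called 0 members of these lists. At an unadjusted p under 0.05 the proliferation, heat shock and mast cell lists held 1 higher member each and the heat shock list 1 lower member. Of all genes tested 3.45% were higher and 3.71% lower at that threshold. A positive log2 fold change was found in 56.8% of the named protein-coding genes tested.

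Set against the 3 h libraries, 2 patterns are shown by value for some of the called genes. Lag3, Tap1, Ifitm3, Elf3 and Jchain are not sorted into them. Gbp2, Gzmb, S100a9, Acod1 and Cxcl10 spanned 3.94 to 69.4, 3.94 to 30.3, 5.19 to 27.8, 10.5 to 54.3 and 0 to 19.0 CPM at 3 h, and their log2 fold changes of 24 h over 3 h were -0.023 ± 0.64, -0.36 ± 0.64, -0.58 ± 0.71, -0.996 ± 0.73 and -0.22 ± 0.86. Ifi27l2a, Ly6a and Bst2 spanned 0 to 11.4, 0 to 9.13 and 0 to 7.57 CPM at 3 h, below each of their 24 h libraries, with 3.15 ± 0.63, 2.16 ± 0.63 and 2.20 ± 0.78 (edgeR adjusted p = 0.0595, 0.145 and 0.218). Olfm4 spanned 31.5 to 89.9 CPM at 3 h and was at -2.59 ± 0.65 (adjusted p = 0.106). No gene passed between 24 h and 3 h by edgeR (0% called), with 12.2% at an unadjusted p under 0.05, while DESeq2 called 67 higher and 12 lower, and limma-voom 6 higher. The 24 h libraries enter both contrasts, which are therefore not independent. Vehicle libraries at 3 h and 24 h also differ in i5 index, so time and index cannot be told apart between them.

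By list, mean summed levels in unstimulated, 3 h and 24 h vehicle libraries were 2411, 3310 and 7055 protein-coding CPM for interferon effectors. They were 654, 1968 and 2549 for the GTPases. Paneth cell sums at 3 h, 19900 to 29210, lay in the range of the 24 h libraries and below all unstimulated ones. Enterocyte sums at 3 h, 966 to 3862, overlapped the unstimulated range and lay above all 24 h libraries.

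Whether the 24 h difference depends on treatment was tested with the propyzamide libraries. The difference between the vehicle effect and the propyzamide effect was called for 0 genes by edgeR (0% called), with 2.34% at an unadjusted p under 0.05 and 0 higher and 2 lower by DESeq2. For Gbp2 the effect with vehicle exceeded that with propyzamide by 2.65 ± 1.20 on the log2 scale, and for Olfm4 the difference was -1.995 ± 0.84 (edgeR adjusted p = 0.9999 for both). In propyzamide 24 h replicate 3, the library that stood apart, Gbp2 was at 25.3 and Olfm4 at 87.3 CPM, against 6.23 to 11.4 and 1.81 to 28.0 CPM in the other 3 of its group. Without it the differences were 3.38 ± 1.20 for Gbp2 and -0.86 ± 0.76 for Olfm4, and edgeR again called 0 genes.

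An additive model of treatment, time and i5 index over all 24 libraries separated index from time through the 3 h groups. For this the model assumes that treatment and time do not interact, and fits 1 time effect shared by vehicle and propyzamide libraries. It called 0 genes for the index itself, with 187 of 3799 at an unadjusted p under 0.05, and called 2 genes at 24 h, Gzmb at 5.07 ± 0.996 and Lag3 at 4.98 ± 0.97 (edgeR adjusted p = 0.032 for both). Ifi27l2a was at 3.93 ± 0.96 (adjusted p = 0.183) and Gbp2 at 3.03 ± 1.09 (adjusted p = 0.351), and Ly6a, Tap1, Ifitm3 and Bst2 were at 2.06 to 2.70. Olfm4 was at -0.12 ± 0.81 (adjusted p = 0.966), and Fabp1, Lgals4 and Cldn7 at 0.88 ± 1.21, 0.041 ± 1.10 and 0.78 ± 1.04, where they had been negative. The enterocyte and epithelial medians became 0.94 and 0.089 with the index term, but -2.62 and -1.59 with it and without propyzamide 24 h replicate 3, so that their direction in this model rests on that library. Summed enterocyte and epithelial levels there were 7693 and 7687 protein-coding CPM, against 284 to 532 and 500 to 1879 in the other 3 of its group. Without it Olfm4 was at -1.37 ± 0.71 (edgeR adjusted p = 0.498), and Fabp1, Lgals4 and Cldn7 at -1.95 ± 1.11, -2.87 ± 0.90 and -1.79 ± 0.90. That fit, chosen after seeing the data, called 0 genes higher and 1 lower, the gene model Gm22690, with 396 at an unadjusted p under 0.05, and Gzmb and Lag3 were at 4.93 ± 1.06 and 4.76 ± 1.03 (adjusted p = 0.0904 for both). Tff3, Itln1 and Defa39 were negative in all 3 fits, with the index term and all libraries at -3.67 ± 1.03, -1.58 ± 0.56 and -1.63 ± 0.60. The additive model over all libraries without the index term called 64 genes higher and 36 lower.

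**Figure D5:**
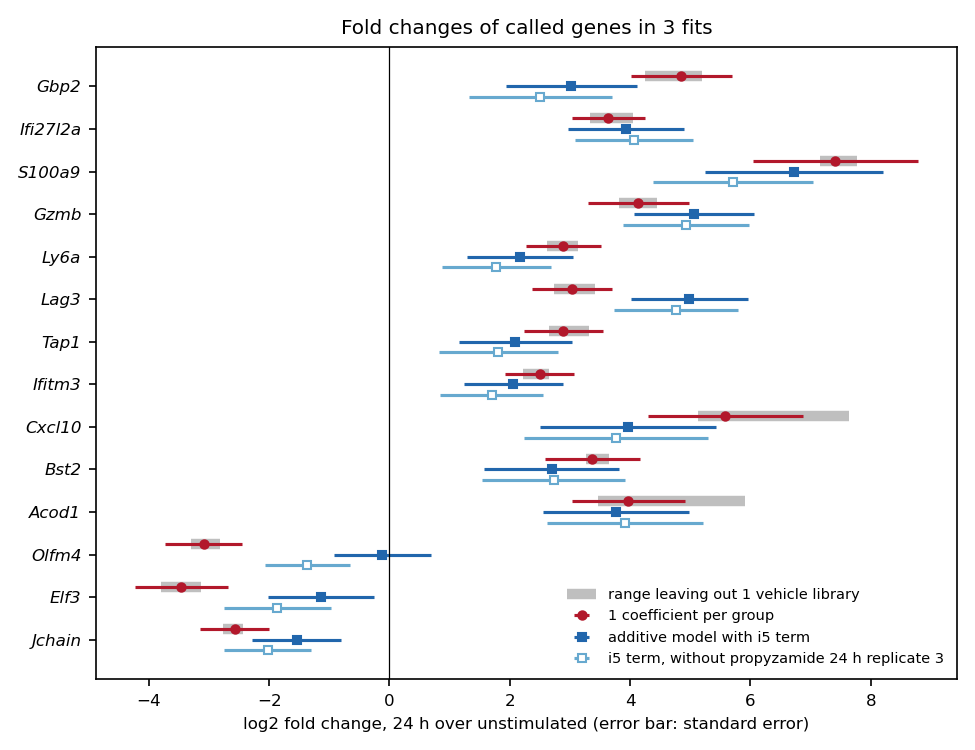
Log2 fold change of 24 h over unstimulated libraries with its standard error for 14 called genes. Red circles give the vehicle contrast from the fit with 1 coefficient per group, with its range over 8 fits that left out 1 vehicle library (grey band). Squares give the 24 h effect shared by vehicle and propyzamide libraries, from the additive model with an i5 term. Blue squares are over all libraries and open squares without propyzamide 24 h replicate 3. Higher genes lie above 0 in the 3 fits, and Olfm4 lies at -3.09, -0.12 and -1.37.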

How the data were processed

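Libraries were made with the SMART-seq2 protocol, per the labels' protocols, and quantified with kallisto on GRCm38, per the submitters' processing notes, which give no version. The authors deposited, per the file headers, expected counts for 142604 transcripts, not scaled to depth, together with TPM. A further deposited column of the class other, the effective transcript length per the file headers, entered only an offset. Expected counts were summed to 55401 genes by the gene ID in each transcript name and rounded, and TPM was used for 2 alternatives. Columns of other samples numbered 0. SMART-seq2 does not mark strand, so overlapping genes may share reads.

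Summed counts entered edgeR 4.0.16 under R 4.3.3, with 1 coefficient per group over all 24 libraries so that the 6 groups share an estimate of spread, filterByExpr, TMM and the quasi-likelihood F test. This filter kept 3799 genes for testing, 2465 of them named protein-coding. P-values were adjusted by Benjamini-Hochberg over all genes tested, and calls made at 0.05. The biological coefficient of variation was 46.4%. On simulated data the script recovered the changes put in. Pairs of replicates differed by a chi-square per degree of freedom of 4.92 to 13.4, so no pair was taken for 1 library. Satellite-like models share at least 5% of their stretches of 31 bases with Gm10800. Lists with members at 0 in both groups were counted whole. Intervals have 95% confidence and floors are 3 counts over a group; both cover counting error only, since these reads carry no molecular identifiers.

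The named genes are every called gene and up to 4 tested members of each of 26 lists with the smallest p, with up to 2 untested members by total count. Groups, members and lists were chosen with earlier results of these data known. Of the genes this rule names, 1 called higher, 1 called lower and 1 list member not called are not reported here. Coordinates come from the GENCODE annotation of GRCm38 and promoters from RefSeq. Alternatives were RLE, no filter, named protein-coding genes only, DESeq2 1.42.0, limma-voom and limma-trend (limma 3.58.1), a length offset, fewer libraries and an i5 term.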

Additional observations from a re-analysis of the deposited data

Results flagged for a closer look

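Within groups of 4 libraries, 10 of 130 sets of values held a library far from the other 3 past the 95% critical value of Dixon's ratio. Chance gives about 1 in 20 such groups for normally distributed values, or 6.5 here. Levels near 0 do not meet this: for Apoa1, Cldn4 and Cxcl10, a single count against 0 in the other libraries gives a ratio of 1. None of the flagged sets was given an explanation.

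In 24 h libraries, Gzma reached 55.1 CPM in replicate 4 against 8.87 to 10.3 CPM in the others, and Ighg1 reached 8.60 CPM in the same library against 0 to 0.683 CPM. H2-Q6 was low there, at 15.5 CPM against 44.8 to 46.8 CPM. Replicate 1 at 24 h, the deepest of its group, was high for H2-T23 (55.3 CPM against 40.0 to 41.8), Igha (86.0 CPM against 58.2 to 62.8) and Irf1, an interferon regulatory transcription factor (45.04 CPM against 17.2 to 21.7). Replicate 3 at 24 h was the sole 24 h library with reads of Apoa1, at 1.14 CPM, and of Cldn4, a claudin, at 1.14 CPM, each of them 1 count.

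Among unstimulated libraries, H2-T23 was at 27.6 CPM in replicate 2 against 12.4 to 13.6 CPM in the others, and Cxcl10 was at 0.826 CPM, 1 count, in replicate 1 against 0 in the others.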

How the results depend on the processing

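No paired analysis was possible because the labels carry no replicate numbers. For 24 h against unstimulated, 12 genes were higher and 4 lower. RLE gave 5 and 0, DESeq2 24 and 10, the length offset 7 and 2, the i5 term 2 and 0 (0 and 1 without propyzamide 24 h replicate 3, chosen after seeing the data), and the additive model without it, chosen after seeing the data, 64 and 36. The fits with the i5 term and the additive model without it give a 24 h effect shared by vehicle and propyzamide libraries, not the vehicle contrast. Limma-trend on log2(TPM + 1) gave 0 and 0, and the lower count was 46 without the filter on low counts, 18 with named protein-coding genes only, 15 without propyzamide 24 h replicate 3 and 34 with only the 2 groups, a fit in which 6 of the 12 higher genes did not pass the filter. DESeq2 and the fit without propyzamide 24 h replicate 3 kept all 16 called genes. Leaving out 1 vehicle library of either group gave 1 to 8 higher and 0 to 2 lower, and of the 8 such fits Ifi27l2a was called in 8, Gbp2 in 7, S100a9 in 4, Olfm4 in 3 and Gzmb in 2. Tap1 and Ly6a were each called in 1 of them, and Elf3, Jchain, Lag3, Ifitm3, Bst2, Acod1 and Cxcl10 in 0.

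For 24 h against 3 h, 0 and 0 became 2 higher with RLE, 15 and 19 without the filter, 3 and 12 on named protein-coding genes alone, 67 and 12 with DESeq2, 6 higher with limma-voom, 4 and 4 without propyzamide 24 h replicate 3, and 0 to 2 and 0 to 1 leaving out 1 library. The difference between vehicle and propyzamide gave 7 and 13 without the filter and 2 lower with DESeq2, and 0 in each leave-one-out fit.

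List medians moved with limma-trend to 0.80 (interferon effectors), 0.51 (GTPases), 0.74 (MHC class I), -0.025 (MHC class II, reversed), 0.63 (cytotoxic), 0.19 (T cell receptor), 0.19 (naive lymphocyte), -1.22 (plasma cell), 0.24 (myeloid), -2.30 (enterocyte), -2.13 (epithelial), -1.29 (goblet), -1.68 (Paneth), -1.15 (mitochondrial) and 0.23 (ribosomal). The i5 term gave 1.77 (interferon effectors), 2.06 (T cell receptor), -0.24 (plasma cell), 0.94 (enterocyte, reversed), 0.089 (epithelial, reversed) and -0.89 (goblet); with it and without propyzamide 24 h replicate 3 medians were 1.70 (interferon effectors), 2.06 (T cell receptor), -2.62 (enterocyte), -1.59 (epithelial) and -0.65 (Paneth), and the additive model without it 1.31 (cytotoxic), -0.17 (plasma cell), -1.50 (enterocyte) and -1.38 (epithelial). With only the 2 groups medians were 1.63 (interferon effectors), 0.10 (cytotoxic), -2.83 (enterocyte) and -2.58 (goblet), without the filter 0.38 (cytotoxic), with named protein-coding genes only -0.13 (plasma cell), with limma-voom -3.08 (enterocyte) and with the length offset -2.56 (goblet). Leaving out 1 library moved the cytotoxic median to 1.35 to 1.99, enterocyte to -4.73 to -3.12, goblet to -2.91 to -1.68 and interferon effectors to 1.35 to 1.65. Single genes reversed with the i5 term: Fabp1 (0.88), Lgals4 (0.041) and Cldn7 (0.78). TPM shares gave a satellite-like difference of 5.25 points and a mitochondrial one of -1.13 points. The causes were not tested. RLE, the restriction to named protein-coding genes and the lack of a filter shifted the median of all genes by 0.11, -0.17 and -0.25. With 35558 to 100857 named protein-coding counts at 24 h, most T cell genes were too shallow to test.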

Other observations

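Among genes outside the called set, chosen after their values were seen, several others stood apart between the groups. Wars, the tryptophanyl-tRNA synthetase that interferon gamma induces, had 28.7, 10.4, 11.4 and 17.2 CPM at 24 h, against 1.65, 4.82, 2.56 and 3.40 CPM unstimulated (2.41 ± 0.61, edgeR adjusted p = 0.0781). Irf7, a master regulator of type I interferon genes, had 13.7, 10.4, 19.4 and 5.16 CPM at 24 h and 0, 3.51, 1.03 and 2.27 CPM unstimulated (2.73 ± 0.72, adjusted p = 0.0964). Shisa5, an endoplasmic reticulum protein, was at 59.1 ± 21.9 CPM at 24 h and 18.6 ± 9.57 CPM unstimulated (SD, n = 4 each, 1.65 ± 0.45, adjusted p = 0.114). The groups did not overlap for these 3 genes.

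Areg, the growth factor amphiregulin, had 0 counts in all 24 h libraries and 13, 17, 17 and 17 counts in unstimulated ones, at least 10.6-fold lower (edgeR adjusted p = 0.113). Krt8, an epithelial keratin, had 8.87, 1.49, 0 and 3.44 CPM at 24 h and 50.4, 30.7, 35.9 and 23.8 CPM unstimulated (-3.12 ± 0.89, adjusted p = 0.148). Hspa1a, an inducible heat shock protein, was at 24.9 ± 21.1 CPM at 24 h and 5.68 ± 5.71 CPM unstimulated, with overlap (2.08 ± 0.86, adjusted p = 0.545), and Atf3, a stress transcription factor, at 10.4 ± 8.06 and 26.2 ± 9.25 CPM (-1.25 ± 0.58, adjusted p = 0.655). None of these 4 was called.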
